A study of Mus musculus with 28 samples.

Results

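Wild-type mouse bladder was followed over the last day before birth, from embryonic day 18 (E18) to embryonic day 19 (E19). The comparison rests on the 2 arrays labelled wild-type bladder E19 and the 2 labelled wild-type bladder E18, 4 of the 28 arrays of the series. All fetuses were Balb/c, and the series compared p63 knockout with wild-type mice in bladder, stomach and intestine on Affymetrix mouse genome arrays. The knockout bladder arrays of the same stages, 2 at E18 and 2 at E19, are set beside the wild-type ones, and the 2 wild-type bladder arrays of E15 give the earlier level. The sources used here give neither the knockout allele nor the number of animals behind a sample. They do not say either whether the 2 arrays of a group are from separate fetuses, so p-values cover the spread between 2 samples. The 2 wild-type E18 arrays differ in X- and Y-linked genes, as do the 2 of wild-type E15, so neither pair repeats 1 sample. In the other groups used here the spread may be technical. Every value below is a log2 value as deposited, so a difference of 1 is 2-fold, and n = 2 arrays in each group.

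The bladder wall is a muscular sac lined by urothelium. Its umbrella cells carry uroplakin plaques on the surface facing the urine, with intermediate and basal cells beneath them, and p63 marks the cells under the umbrella layer. Around the lining lie a connective tissue rich in collagen and elastin and the smooth muscle that empties the organ. In the days before birth fetal organs slow their growth while circulating glucocorticoid rises, and hormone-responsive genes are switched on in many tissues.

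Markers of the labelled tissue were present on every array. The 22 urothelial differentiation genes had a mean level of 12.64 to 12.77 on the E18 arrays and 12.58 to 12.59 on the E19 arrays. The 20 genes of smooth muscle contraction had a mean of 13.20 on both E18 arrays and of 13.17 to 13.24 on the E19 arrays. Basal epithelial genes lay at a mean of 10.19 to 10.39 on the 4 wild-type arrays, above the 8.38 to 8.75 of the 4 knockout bladder arrays of the same stages. Trp63, which encodes p63, read 12.29 and 12.54 at E18 and 11.67 and 12.28 at E19 in wild type, a change of -0.44 that limma did not call (adjusted p = 0.32). Its other 2 kept probe sets read -1.46, which was called, and 0.60, which was not. It read 11.37 and 11.26 in knockout E18 and 9.44 and 9.62 in knockout E19. Whether its probe set lies in the deleted part was not tested.

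The E19 arrays stood apart from all others. Their medians over all probe sets were 7.48 to 7.53 on the 4 E19 arrays of both genotypes and 7.73 to 7.86 on the other 24. The 24 probe sets for the bacterial poly-A control RNAs dap, lys, phe and thr, which are added to a sample before labelling, averaged 8.90 to 9.42 on the E19 arrays and 4.13 to 4.51 on the others, near the level of a control with no RNA added (4.24 at E18). The 5 prime probe set of 18S ribosomal RNA rose from 10.07 to 13.62 while the middle one fell from 14.20 to 12.39. The labels give no batch or scan date, every E19 array is of this kind and no other array is, so stage and whatever sets these arrays apart cannot be told apart. Xist and Eif2s3y, the X-inactivation RNA and a Y-linked gene, differed between the 2 wild-type E18 arrays (Xist 6.003 and 12.99), while both wild-type E19 arrays had Xist at 12.62 and 12.99. In the knockout Xist was at 12.74 and 12.87 at E18 and at 5.82 and 6.49 at E19, and Eif2s3y at 4.18 and 4.24 and then at 11.65 and 11.59, so the knockout stages differ in the sex of the fetuses by these genes.

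**Figure D1:**
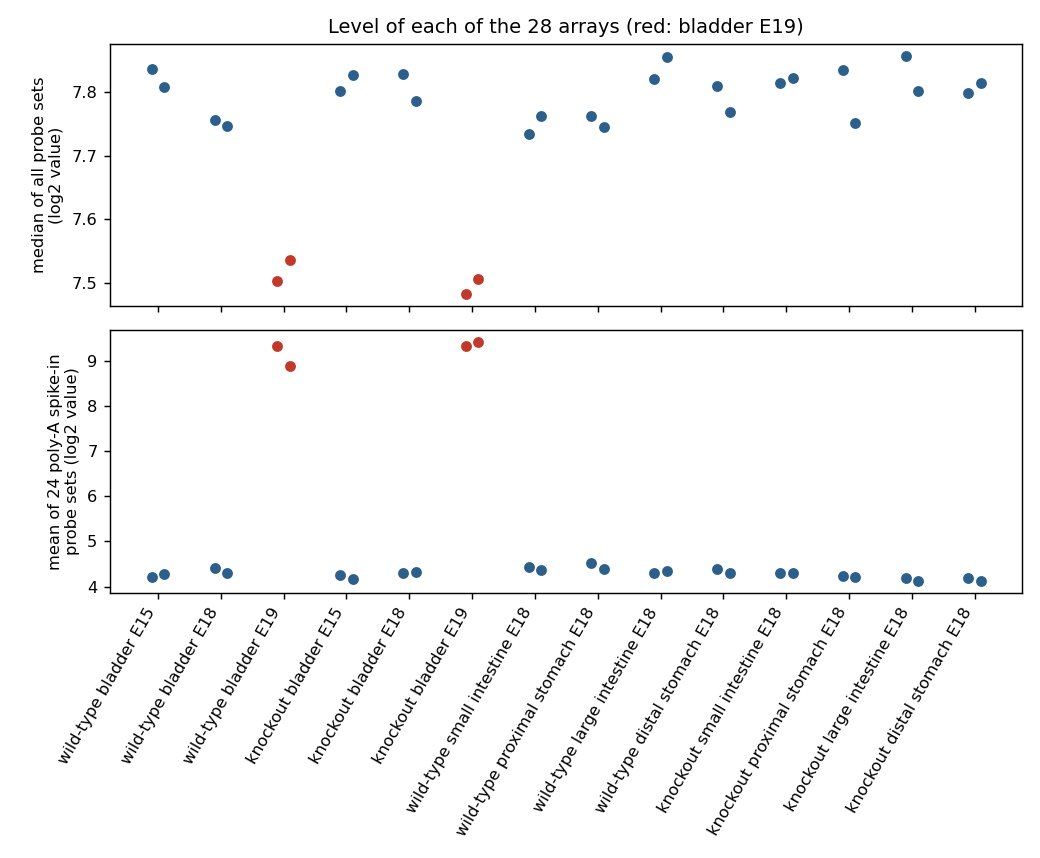
Median log2 value of all probe sets (top) and mean log2 value of the 24 poly-A spike-in probe sets (bottom) on each of the 28 arrays, 1 point an array, grouped by genotype, tissue and stage, with the axes not starting at 0. The 4 E19 bladder arrays (red) lie at medians of 7.48 to 7.53 and spike-in levels of 8.90 to 9.42, apart from the other 24.

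Most genes were called between the 2 stages. With limma and an adjusted p under 0.05, 8591 of 13613 genes tested were called in wild type (63.1%), of which 3684 were higher (27.1% of genes tested) and 4907 lower (36.0%) at E19. The change was at least 2-fold for 3902 of them (28.7%), 1515 higher and 2387 lower, and at least 8-fold for 184. The 2 E19 values lay both above or both below the 2 E18 values for 11236 genes (82.5%). The SD of the change over genes was 1.04, against 0.737 for the 3 days from E15 to E18, where 6130 genes (45.0%) were called. Which direction prevails depends on the scaling: 42.9% of calls were higher in the deposited values, 57.3% when each array was centred on its median and 52.7% after quantile normalization, and the median change over all genes was -0.08, 0.15 and 0.06.

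The knockout bladder gave a second set of E18 and E19 arrays. There 8235 genes were called (60.5%), 3856 higher (28.3%) and 4379 lower (32.2%), and 6710 genes were called in the same direction in both genotypes, which is 78.1% of the wild-type calls and 81.5% of the knockout calls. Another 67 were called in opposite directions. Over genes, which are not independent, the changes of the 2 genotypes had a Pearson r of 0.884. The test of the difference between the 2 changes called 718 genes (5.27%), 176 with a higher change in wild type (1.29%) and 542 with a lower one (3.98%), and 439 of these 542 were themselves called lower in wild type. A shift of equal size on all 4 E19 arrays cancels in this difference, and an unequal one does not. The poly-A controls averaged 9.35 and 8.90 on the wild-type E19 arrays and 9.35 and 9.42 on the knockout ones. Whether the shift was equal for all genes was not tested.

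**Figure D2:**
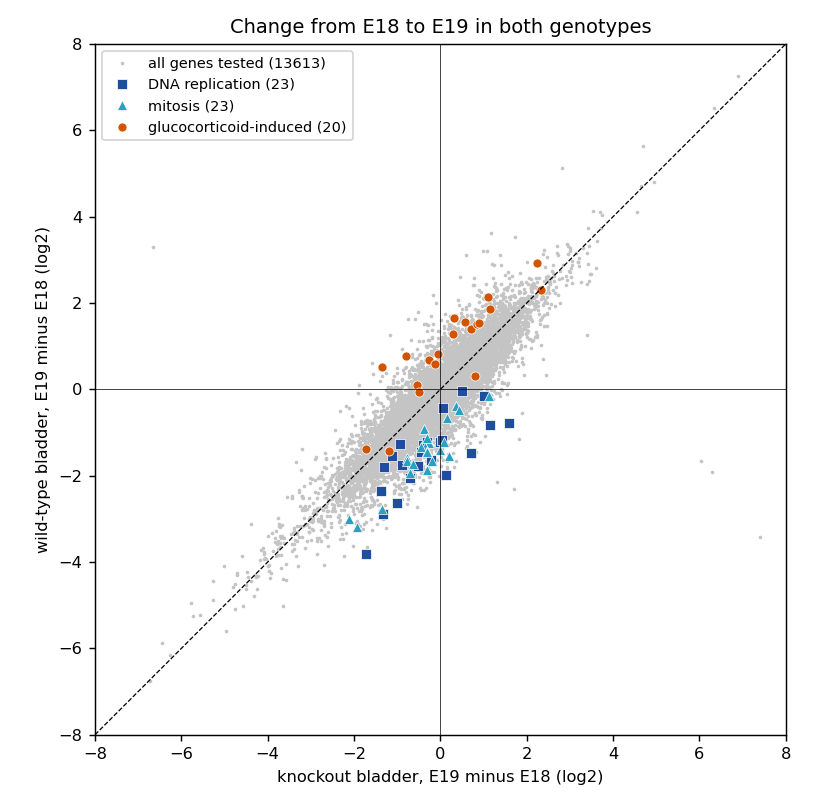
Change from E18 to E19 (log2) of the 13613 genes tested, in knockout bladder (horizontal) and wild-type bladder (vertical), 1 point a gene; the dashed line marks equal changes. The 23 DNA replication and 23 mitosis genes all lie below the line, and 17 of the 20 glucocorticoid-induced genes above it.

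Different probe sets of one gene often disagreed. Among 3739 genes with at least 2 probe sets called in wild type, 1673 (44.7%) had probe sets called in opposite directions, and the share was 47.2% in the knockout. It was 11.8% between E15 and E18, and 1.37% (2 of 146 genes) for the difference between genotypes. Hbb-b2, a beta-globin gene, had one probe set lower by -3.92 and another higher by 3.54 in wild type, and by -4.06 and 4.15 in the knockout. Where another kept probe set of a gene below was called in the opposite direction, this is stated.

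The cell division machinery showed the most uniform decrease of the lists. Of 23 DNA replication genes tested, 21 fell (91.3%, beside 36.0% of all genes) and none rose. Their median change was -1.48 against -0.08 over all genes. Of 23 mitosis genes, 21 fell and none rose, with a median of -1.43. The mean level of the replication list was 10.998 to 11.117 on the E18 arrays and 9.44 to 9.59 on the E19 arrays, and that of the mitosis list was 11.23 to 11.28 and 9.70 to 9.85. Both lists were at 11.84 to 11.94 at E15. Probe sets of these genes moved together: 44 of 49 probe sets of the replication list and 35 of 38 of the mitosis list were called lower and 0 higher. Under every scaling and with any 1 array left out, at least 20 members of each list were called lower.

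Uhrf1, which recruits the maintenance DNA methyltransferase to replicating DNA, had the largest decrease of the replication genes. Its values were 12.63 and 12.45 at E18 and 8.63 and 8.82 at E19, a change of -3.81 (SE 0.18, limma adjusted p = 2.3e-13). Both E19 arrays were also below both E15 arrays, at 13.24 and 13.29. Gins2, a subunit of the replicative helicase complex, went from 10.80 and 10.73 to 7.96 and 7.78, and Mcm3, another helicase subunit, from 11.64 and 11.33 to 8.72 and 9.002, with all 5 of its probe sets lower. Prim1, the primase that lays down RNA primers, went from 12.27 and 12.37 to 10.06 and 9.86. The E18 and E19 values did not overlap for any of these, nor for 82.5% of all genes tested. The origin-recognition gene Orc1 fell by 2.05 and the clamp-loader gene Rfc4 by 1.80. Rrm2 and Tyms, which make DNA precursors, changed by -1.78 and -1.76, both called, and Pcna, the sliding clamp, by -0.44, called as well. The 2 members not called were the helicase gene Mcm7 (-0.03) and the licensing factor Cdt1 (-0.14), which were called as the mean of their probe sets, at -0.82 and -0.53.

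Among the mitosis genes, Tpx2, a spindle assembly factor, went from 11.56 and 11.69 to 8.27 and 8.60, a change of -3.19 (SE 0.16, limma adjusted p = 1.4e-12). Prc1, which bundles the microtubules of the central spindle, went from 12.30 and 12.38 to 9.40 and 9.30. Birc5 and Aurkb, partners in the chromosomal passenger complex, fell by 2.78 and 1.94. Mki67, the gene of the proliferation antigen Ki-67, had 12.66 and 12.57 at E18 and 11.28 and 11.45 at E19, a change of -1.25 (SE 0.16, limma adjusted p = 7.3e-07). The groups were separate for each of these genes as well. The mitotic kinase gene Plk1 (-0.47) and the kinetochore gene Cenpf (-0.16) were not called, and Cenpf was called at -1.73 as the mean of its probe sets.

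The fall was larger in wild type than in knockout bladder, where the levels were already lower at E18. The replication mean was 10.50 to 10.87 on the knockout E18 arrays, against 10.998 to 11.117 in wild type, and 10.37 to 10.39 at knockout E19. The mitosis mean was 10.61 to 10.93 on the knockout E18 arrays, against 11.23 to 11.28 in wild type, and 10.39 at knockout E19. In the knockout 10 replication genes fell (43.5%) and 5 rose (21.7%), with a median of -0.41. There 9 mitosis genes fell (39.1%) and 2 rose (8.70%), with a median of -0.31. Of all genes 32.2% fell and 28.3% rose in the knockout. The difference was called, with a lower change in wild type, for 17 of 23 replication genes and 18 of 23 mitosis genes, where 3.98% of all genes were called so. Uhrf1 in the knockout went from 12.18 and 11.81 to 10.28 and 10.25, and its change differed by -2.08 (limma adjusted p = 1.3e-04). Mcm2, Mcm5 and Cdc6 fell in wild type by 0.82, 0.77 and 1.48 and rose in the knockout by 1.15, 1.58 and 0.71. Mcm5 was not called in wild type without the first E19 array (-0.56). Mki67 changed by -0.26 in the knockout (not called), and the difference was -0.99 (limma adjusted p = 0.011). The count of members differing was 11 for replication and 12 for mitosis without the second knockout E18 array, and 12 and 17 without the first wild-type E18 array, the one with low Xist. What part the sex of the fetuses has in the difference was not tested.

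**Figure D3:**
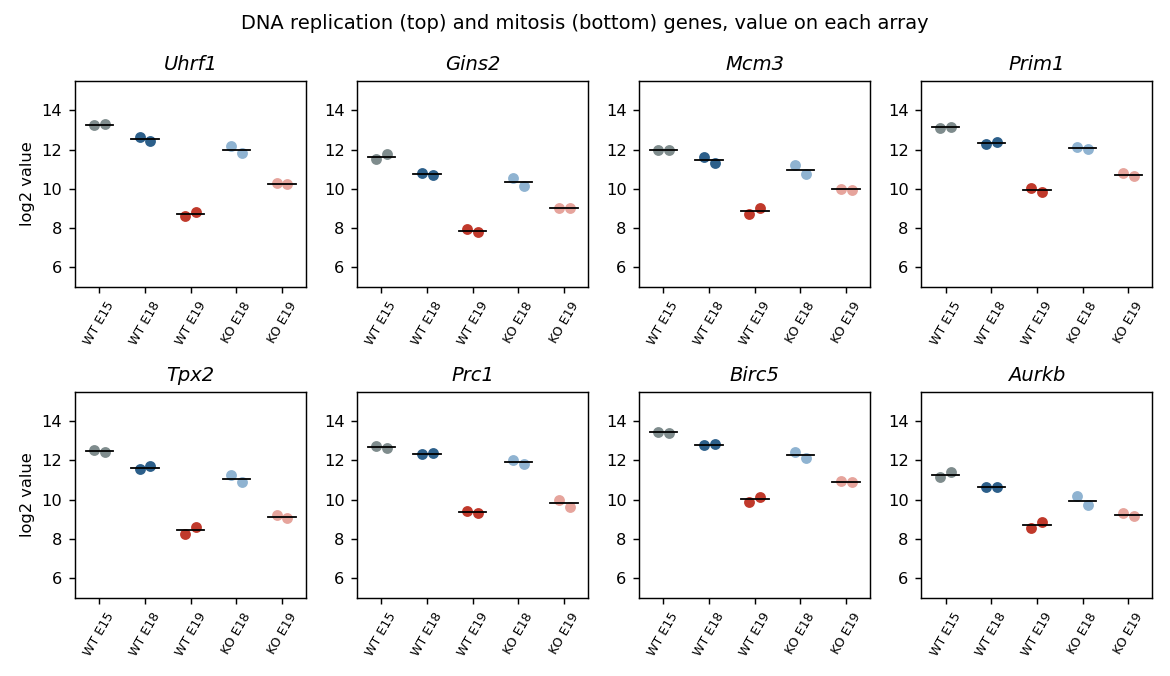
Log2 value on each array (points) and group mean (bars) of 4 DNA replication genes (top) and 4 mitosis genes (bottom) in wild-type (WT) bladder at E15, E18 and E19 and in knockout (KO) bladder at E18 and E19, 2 arrays a group. Wild-type E19 values are the lowest of the 5 groups in every panel, for example 8.63 and 8.82 for Uhrf1 against 10.28 and 10.25 in knockout E19.

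Since members of the 2 lists moved together, the 250 bases before their start sites are shown for a few. E2F factors bind promoters of replication genes, and the CHR element is known from promoters of mitosis genes, where CCAAT boxes are common. Sequences are from RefSeq, mouse assembly GRCm38.p6, 5 prime to 3 prime on the strand of the gene, and capitals mark the match. For the replication genes the capitals are 1 of 4 E2F forms (TTTCCCGC, TTTCGCGC, TTTGCCGC or TTTGGCGC, either strand) in Uhrf1 (chr17:56304063-56304312, plus strand), Mcm5 (chr8:75109259-75109508, plus strand, where 2 matches overlap) and Cdc6 (chr11:98907901-98908150, plus strand).
Uhrf1: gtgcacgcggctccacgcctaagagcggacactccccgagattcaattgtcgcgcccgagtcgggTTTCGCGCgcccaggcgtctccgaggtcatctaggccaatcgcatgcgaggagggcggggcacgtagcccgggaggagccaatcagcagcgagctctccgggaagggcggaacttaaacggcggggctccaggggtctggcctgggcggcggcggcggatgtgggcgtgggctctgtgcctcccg
Mcm5: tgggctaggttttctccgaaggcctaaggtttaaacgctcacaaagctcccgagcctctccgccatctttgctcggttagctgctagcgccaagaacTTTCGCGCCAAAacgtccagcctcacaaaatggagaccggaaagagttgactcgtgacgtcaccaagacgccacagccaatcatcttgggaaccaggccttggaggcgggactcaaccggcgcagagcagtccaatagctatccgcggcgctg
Cdc6: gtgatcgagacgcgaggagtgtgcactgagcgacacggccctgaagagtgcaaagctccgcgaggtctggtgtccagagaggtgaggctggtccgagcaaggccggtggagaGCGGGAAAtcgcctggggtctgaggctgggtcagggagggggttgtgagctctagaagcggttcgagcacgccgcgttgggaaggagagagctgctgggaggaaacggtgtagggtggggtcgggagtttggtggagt

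For the mitosis genes the capitals are the CHR letters TTTGAA on either strand, in Mki67 (chr7:135716380-135716629, minus strand, with 2 matches) and Prc1 (chr7:80294226-80294475, plus strand).
Mki67: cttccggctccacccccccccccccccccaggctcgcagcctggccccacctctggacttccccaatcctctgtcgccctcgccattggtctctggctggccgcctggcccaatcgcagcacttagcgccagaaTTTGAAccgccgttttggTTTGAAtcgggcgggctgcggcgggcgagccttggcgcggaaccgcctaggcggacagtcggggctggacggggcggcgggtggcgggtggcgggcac
Prc1: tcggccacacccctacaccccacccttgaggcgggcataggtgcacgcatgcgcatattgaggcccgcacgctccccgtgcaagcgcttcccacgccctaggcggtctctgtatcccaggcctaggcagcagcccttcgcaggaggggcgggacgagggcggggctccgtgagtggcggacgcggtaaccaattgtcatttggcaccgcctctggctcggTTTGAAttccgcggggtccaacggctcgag

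An E2F form was present before 7 of 20 replication genes with a promoter in the table (35%), 1 of 19 mitosis genes (5.26%) and 402 of all 10924 tested genes with a promoter (3.68%). The CHR letters were before 8 of 19 mitosis genes (42.1%), 3 of 20 replication genes (15%) and 12.95% of all. CCAAT, on either strand, was before 16 of 19 mitosis genes (84.2%), 14 of 20 replication genes (70%) and 39.8% of all. Over all 32851 windows of the table the shares were 1.86% for E2F, 16.0% for CHR and 33.9% for CCAAT. These are matches of letters and do not show that a factor binds.

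Genes listed as induced by glucocorticoid mostly rose. Of 20 tested, 13 rose (65.0%, beside 27.1% of all genes) and 2 fell, with a median change of 1.05. The mean level of the list was 10.18 to 10.19 at E15, 11.16 to 11.20 at E18 and 12.07 to 12.20 at E19. By probe set, 28 of 44 were called higher and 8 lower. The number of genes higher was 11 or 12 with any 1 array left out and 17 with arrays centred.

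Cebpb, a transcription factor of the acute phase and of fat cells, had 9.22 and 9.12 at E18 and 11.68 and 11.27 at E19, a rise of 2.31 (SE 0.21, limma adjusted p = 9.3e-09). Per1, a clock gene with glucocorticoid response elements, went from 8.85 and 8.98 to 11.21 and 10.88. Fkbp5, a co-chaperone of the glucocorticoid receptor, went from 10.73 and 10.43 to 12.37 and 12.49. The 2 stages were apart for all 3 genes, as for 82.5% of all genes tested. Cebpd rose by 2.93, though another of its probe sets was called lower by -0.96. Klf9, a zinc finger factor, rose by 1.52 with 6 of 6 probe sets higher. Tsc22d3, which encodes the anti-inflammatory protein GILZ, rose by 1.56 and the zinc finger gene Zbtb16 by 1.39. The 2 members that fell were the stress gene Ddit4 (-1.43) and Nr3c1 (-1.38). Nr3c1 encodes the glucocorticoid receptor itself, and its place in the list does not mean that the hormone induces it. Glul, glutamine synthetase, was not called (0.10; 0.33 and called when centred).

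In the knockout 9 of these 20 genes rose (45.0%, beside 28.3% of all genes), with a median of 0.31. Another 6 fell (30.0%, near the 32.2% of all genes). Cebpb rose there by 2.34 and Fkbp5 by 1.15. The difference was called for 5 members, each with a higher change in wild type: Tsc22d3 (0.98), Per1 (1.02), Errfi1 (1.58), Pdk4 (1.87) and Glul (0.64), where 1.29% of all genes were called so. Between 2 and 6 members differed with 1 array left out, the lowest count without the second knockout E19 array.

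**Figure D4:**
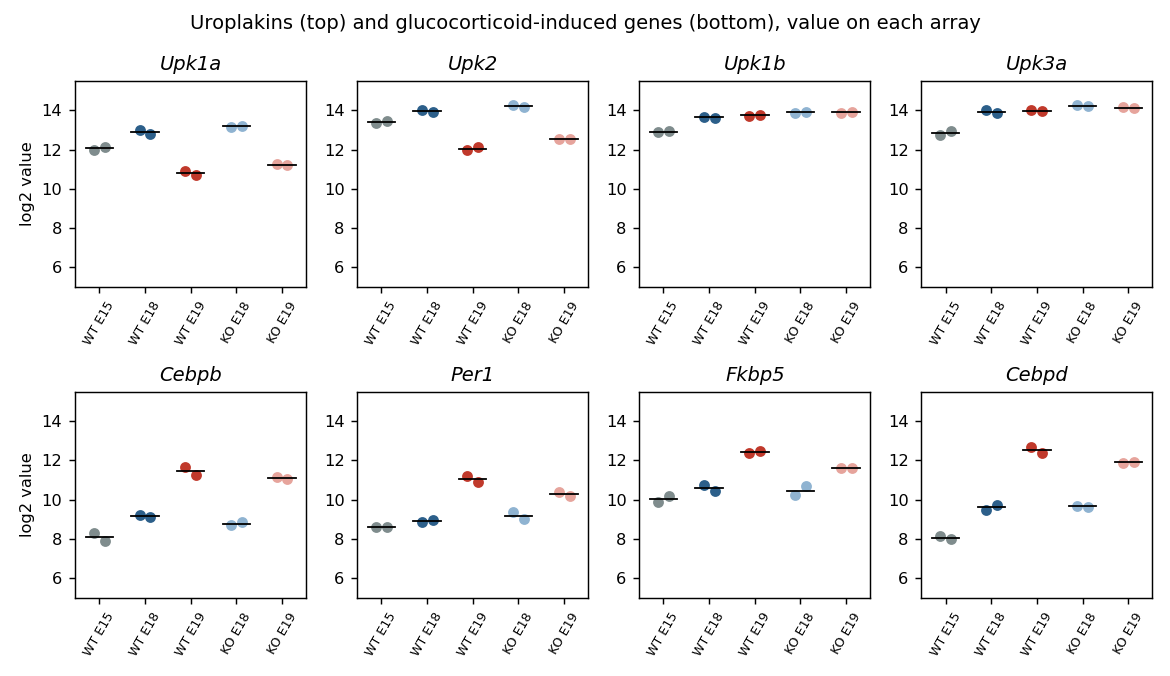
Log2 value on each array (points) and group mean (bars) of 4 uroplakin genes (top) and 4 glucocorticoid-induced genes (bottom), in wild-type (WT) and knockout (KO) bladder by stage, 2 arrays a group. Upk1a and Upk2 are lower on the E19 arrays of both genotypes while Upk1b and Upk3a are level, and the 4 lower panels are higher at E19 in both genotypes.

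The urothelial list as a whole changed little, and its uroplakins split. Of 22 genes, 5 fell (22.7%, beside 36.0% of all genes) and 1 rose (4.55%, beside 27.1%). Their median was 0.04, and 5 rose when arrays were centred. Upk1a had 12.99 and 12.81 at E18 and 10.89 and 10.72 at E19, a change of -2.10 (SE 0.25, limma adjusted p = 3.4e-07). Upk2 went from 14.03 and 13.94 to 11.98 and 12.11, a change of -1.94 (SE 0.30, limma adjusted p = 1.1e-05). Each fell below its E15 level, which was 12.07 for Upk1a and 13.39 for Upk2. Upk1b and Upk3a, which pair with each other in the plaque as Upk1a does with Upk2, had no call. Upk1b read 13.67 and 13.61 at E18 and 13.72 and 13.78 at E19, and Upk3a 14.02 and 13.87, then 14.004 and 13.97. The stages overlapped for Upk3a and not for Upk1b, which was called, at 0.49, as the mean of its 4 probe sets. In the knockout Upk1a and Upk2 fell, with changes of -1.97 and -1.69, and 0 members of the list were called in the difference.

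The tight-junction gene Cldn4 was the 1 member that rose, from 10.67 and 10.81 to 13.13 and 13.04. The change was 2.34 (SE 0.28, limma adjusted p = 4.4e-07) in wild type and 2.14 in the knockout. The zinc finger factor gene Klf5 fell by 0.72. Pparg, a nuclear receptor of urothelial differentiation, was not called (-0.22). Krt20, the keratin of umbrella cells, read 11.33 and 10.43 at E18 and 11.22 and 11.62 at E19 (0.54, not called). Without the first E18 array its change was 0.99 and was called.

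Basal epithelial genes went both ways, with 4 higher (22.2%) and 5 lower (27.8%) of 18 and a median of 0.02. The shares of all genes were 27.1% and 36.0%. Krt5, the basal keratin, had the same mean at both stages (12.71 and 12.17, then 12.54 and 12.35), after a level of 8.30 at E15. Krt14 read 11.39 and 9.57, then 11.35 and 10.52 (0.45, not called), and without the first E18 array its change was 1.37 and was called. Col17a1, a hemidesmosome collagen, rose from 7.14 and 7.42 to 9.36 and 9.01. Bcl11b, a zinc finger factor, fell from 9.61 and 9.51 to 7.04 and 7.73. Its fall in the knockout was 0.84, a difference of -1.33.

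Genes of squamous differentiation gave 4 higher (17.4%) and 2 lower (8.70%) of 23, with a median of 0.21. Of all genes 27.1% were higher and 36.0% lower. Sprr2d, a cornified envelope gene, rose from 5.25 and 5.33 to 6.72 and 6.49. Krt6b, counted among the 4, stayed near the control with no RNA added, at a mean of 3.58 at E18 and 4.69 at E19. Lypd3 fell by 1.30, and 1 gene fell without the first E18 array. Among 24 genes of epithelial junctions and barrier 5 rose (20.8%) and 10 fell (41.7%), near the shares of all genes (median -0.25). The plakoglobin gene Jup fell by 1.53. Grhl2, a factor that maintains epithelial junctions, fell by 1.64, while its other kept probe set was called higher (0.92) and their mean changed by -0.36, not called. Of 14 membrane transport genes 3 rose (21.4%) and 5 fell (35.7%), also near the shares of all genes (median -0.02). When centred 4 rose and 2 fell, and 3 fell without the second E18 array. Both called subunits of the epithelial sodium channel rose, Scnn1a by 1.47 and Scnn1g by 1.53, while Scnn1b changed by 0.02. The change of Scnn1b was higher than in the knockout by 1.20. The carbonic anhydrase gene Car12 fell by 1.28.

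Mucosal defence and acute phase genes had a median of 0.65, with 4 higher (23.5%) and 2 lower (11.8%) of 17. The shares of all genes were 27.1% and 36.0%. Centring and quantile normalization each gave 7 higher, and leaving out the second E18 array 2 higher and 0 lower. Saa3, a serum amyloid gene, rose from 6.27 and 6.38 to 8.55 and 9.001. It rose by 1.05 in the knockout, a difference of 1.40.

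**Figure D5:**
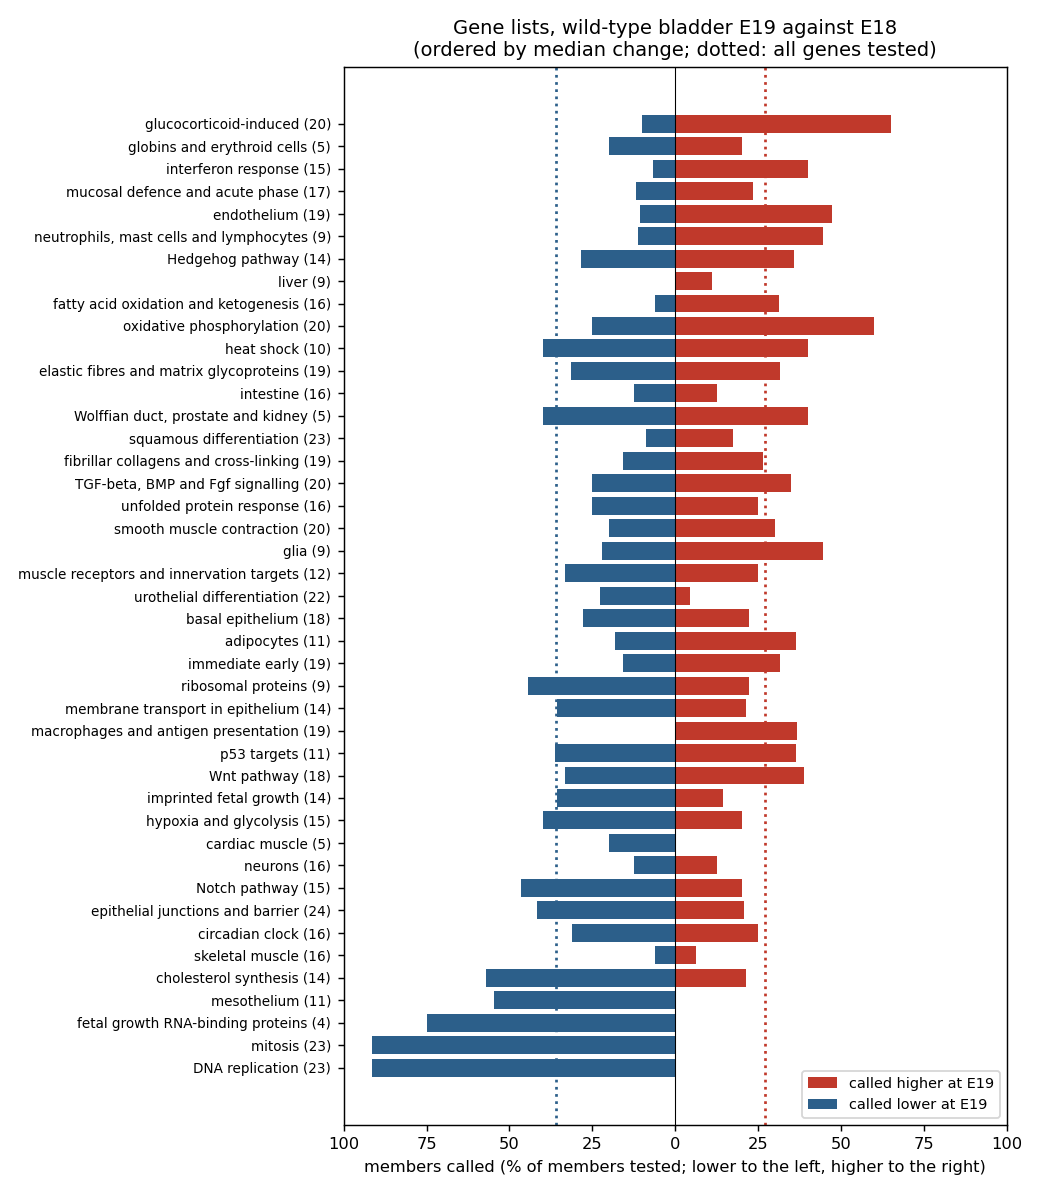
Share of tested members called higher (right, red) and lower (left, blue) at E19 in wild-type bladder for 43 gene lists (members tested in brackets), ordered by median change. The dotted lines mark all genes tested, 27.1% higher and 36.0% lower. The replication and mitosis lists reach 21 of 23 lower, and the glucocorticoid-induced list 13 of 20 higher.

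Most lists have to be read against the high background of calls. Counts such as 6 of 20 higher for smooth muscle contraction, 4 of 18 for basal epithelium or 7 of 20 for TGF-beta, BMP and Fgf signalling are near the 27.1% of all genes, and say little about those lists. For 13 of the 43 lists the median took both signs as the 4 wild-type arrays were left out in turn.

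Of the 15 largest increases by the naming rule, 3 differed between the genotypes by the test. Ces5a, a carboxylesterase gene, went from 4.42 and 4.53 to 11.90 and 11.58, a rise of 7.26 (SE 0.23, limma adjusted p = 6.8e-16), with 6.90 in the knockout. Rpl37, a ribosomal protein gene, went from 4.83 and 5.12 to 11.51 and 11.48, with 6.33 in the knockout. Xdh, xanthine dehydrogenase of purine breakdown, went from 6.01 and 5.93 to 11.64 and 11.57, with 4.70 in the knockout. Each of these values at E19 was outside the E18 pair, which the naming rule requires. For 9 of the 15, Ces5a and Rpl37 among them, the E18 mean was within 1 of the control with no RNA added (4.24), so the size of the rise rests on a value near background, and such a gene can have passed the filter on low values through the arrays where it is high. The E19 mean of 3 of the 15 largest decreases was that near the control (4.09). Casp14, an epidermal caspase, rose by 3.75 (0.74, not called, under a stricter filter on low values that takes another probe set) and the late cornified envelope genes Lce1h and Lce1i by 4.11 and 4.10, with 3.73, 4.55 and 3.70 in the knockout. Smr2 (4.80), Hs3st2 (4.72), the Sox factor gene Sox21 (4.14), Pde7b (4.04), Scand1 (3.74) and Tcl1b3 (3.45) complete those with no call in the difference. Hs3st2 changed by 0.25 where its gene was read by another probe set, with no filter on low values. Serpina3n, an acute phase protease inhibitor, rose by 5.13 and by 2.81 in the knockout, Dynap by 3.62 and 1.18, and the transporter gene Slc10a6 by 3.53 and 1.72.

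None of the 15 largest decreases was called in the difference between genotypes. Thoc1, of the mRNA export complex, went from 12.988 and 12.998 to 6.13 and 6.37, a change of -6.74, with a change of -6.72 in the knockout. The alpha-globin gene Hba-a2 went from 12.78 and 12.88 to 6.11 and 7.25, and the imprinted gene Peg10 from 11.18 and 11.40 to 5.16 and 5.65. Sox11, a factor of fetal progenitors, went from 11.08 and 11.15 to 6.23 and 5.50. The rest were Man2c1os (-5.59), Coq8a (-5.24), the mitotic kinesin gene Kif20b (-5.09), the heparan sulphate core protein gene Gpc2 (-5.01), the lactate transporter gene Slc16a3 (-5.01), Phospho2 (-4.94), Spsb1 (-4.87), Doc2a (-4.63), Wbp11 (-4.63), the integrin gene Itga1 (-4.57) and Ptcd1 (-4.50). Of these 30 genes 11 had more than 1 kept probe set, and for 4 of the 11 all others were called in the same direction. For Coq8a, Phospho2, Spsb1 and Itga1 another was called in the opposite direction. Thoc1 and Sox11 each had 2 others not called, and the highest changes among their probe sets were -0.17 and 0.30. The other probe set of Wbp11 read -0.03, not called.

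Of 20 oxidative phosphorylation genes 12 rose (beside 27.1% of all genes) and 5 fell, 2 when centred, with a median of 0.32. The respiratory chain subunit gene Cox4i1 went from 13.61 and 13.67 to 14.53 and 14.50 (0.87, SE 0.05, limma adjusted p = 2.2e-11). Ndufa1 of complex I rose by 1.35 and Sdhb of complex II by 0.78. Among the ATP synthase genes Atp5g1 (-0.55) and Atp5o (-0.50) fell. The knockout changes of Cox4i1, Ndufa1 and Sdhb were 0.90, 1.43 and 0.94. Fatty acid oxidation and ketogenesis gave 5 higher (31.2%, near the 27.1% of all genes) and 1 lower of 16, with a median of 0.34 and 11 higher when centred. Acadm, which starts the oxidation of medium-chain fatty acids, rose from 10.81 and 11.02 to 12.30 and 12.13. Ucp3 rose by 1.29 and Angptl4 by 1.56.

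Of 14 cholesterol synthesis genes 8 fell (57.1%, beside 36.0% of all genes) and 3 rose, with a median of -0.57. The median was -0.23 without the first E18 array and -0.91 without the second, where 1 rose. Srebf2, the master regulator of sterol synthesis, went from 11.99 and 11.59 to 9.44 and 9.27, and the last enzyme of the pathway, Dhcr7, from 12.33 and 11.95 to 10.03 and 9.19. Hmgcs1 fell by 1.05. In the knockout they changed by -2.25, -2.35 and -0.97. Of 15 genes of hypoxia and glycolysis 6 fell and 3 rose (40.0% and 20.0%, near the shares of all genes), with a median of -0.16 (0.07 when centred). Without the first E19 array 0 rose and the median was -0.44. Pfkl, the liver phosphofructokinase, fell by 2.49 and the hexokinase gene Hk2 by 1.52. Of 11 adipocyte genes 4 rose (36.4%) and 2 fell (18.2%), beside 27.1% and 36.0% of all genes (median 0.01). Among them the lipid droplet genes Cidea (2.35) and Plin4 (1.93) rose. The triglyceride synthesis gene Dgat2 fell by 1.22, and by 0.95 more than in the knockout.

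Smooth muscle contraction gave 6 higher (30.0%) and 4 lower (20.0%) of 20, beside 27.1% and 36.0% of all genes. The median was 0.09, and 2 were lower when centred or without the first E18 array. Acta2, smooth muscle actin, went from 14.59 and 14.56 to 15.14 and 15.19 (0.59). Its other 2 kept probe sets read 2.81 and -0.15. Csrp1, of the actin cytoskeleton, rose by 0.62, with no call without the second E18 array (0.53). Myh11, smooth muscle myosin, read 14.51 and 14.46, then 14.52 and 14.51, with no call. Myocd, the co-activator that drives smooth muscle genes, fell by 0.75, and Pln, phospholamban of the calcium store, fell by 1.92. Of 12 muscle receptor and innervation genes 3 rose and 4 fell (median 0.05), with 5 higher when centred. Tacr2, a tachykinin receptor, rose from 6.33 and 6.47 to 8.47 and 8.25. The prostaglandin receptor gene Ptger3 fell from 9.01 and 9.24 to 6.41 and 5.45, though its other kept probe set was called higher, at 1.86. The serotonin receptor gene Htr2b fell by 2.06.

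The matrix lists were mixed as well, and are read beside 27.1% higher and 36.0% lower of all genes. Of 19 genes of fibrillar collagens and cross-linking 5 rose and 3 fell (median 0.18, 9 higher when centred). Col1a1 fell from 14.59 and 14.47 to 12.46 and 12.46, with its other probe set at -0.88, while Col1a2, the other chain of the same collagen, changed by 0.03. Col6a3 rose by 0.91. The collagen hydroxylase gene P4ha1 fell by 1.08 and changed by -0.04 in the knockout, a difference of -1.05. Elastic fibre and matrix glycoprotein genes gave 6 higher and 6 lower of 19 (median 0.23), and 10 and 4 when centred. Fbln2 rose by 1.68 and Bgn by 0.78, and Fmod fell by 1.96 and Mfap4 by 1.09.

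Fetal growth genes were read in 2 lists. Of 4 genes of fetal growth RNA-binding and chromatin proteins 3 fell (median -0.91). Hmga2 went from 9.63 and 9.89 to 7.20 and 7.32 with 3 of 3 probe sets lower, after 12.81 at E15, and fell by 2.45 in the knockout. Of 14 imprinted fetal growth genes 5 fell (35.7%, beside 36.0% of all genes) and 2 rose, or 4 and 4 when centred (median -0.14, 0.10 when centred). Dlk1 fell from 13.26 and 13.38 to 11.17 and 11.25, and Grb10 by 0.80. Igf2, the fetal growth factor, read 13.68 and 13.73, then 13.90 and 13.86 (0.18, not called), and another of its probe sets read -2.08.

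Stress and rhythm lists went both ways, and are read beside 27.1% higher and 36.0% lower of all genes. Counts near these shares say little about a list. Of 19 immediate early genes 6 rose and 3 fell (median 0.01). Junb went from 7.36 and 7.42 to 10.16 and 9.50 and Ier2 from 8.51 and 8.41 to 10.88 and 11.02, with 3.39 and 3.25 in the knockout. Of 10 heat shock genes 4 rose and 4 fell (median 0.28). Hspa1a rose by 2.63 and Hspb1 by 1.60, and Hsph1 fell by 2.36. Of 16 circadian clock genes 4 rose and 5 fell (median -0.28), and 3 fell without the second E19 array. The clock output factor Hlf rose by 1.23 and Nr1d2 by 1.13. Of 16 genes of the unfolded protein response 4 rose and 4 fell (median 0.14), but 8 and 2 when centred (median 0.37) and 4 and 1 after quantile normalization, and 2 fell without the first E18 array. The calcium-binding chaperone gene Calr fell from 13.44 and 13.47 to 11.96 and 11.61, by 0.82 more than in the knockout. Another kept probe set of Calr was called higher in the knockout, at 0.65. Of 11 p53 targets 4 rose and 4 fell (median -0.04, 0.19 when centred). Plk2 rose by 0.90. Zmat3 fell by 1.41, against 0.65 in the knockout.

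Signalling pathways were tested as lists of ligands, receptors and targets, beside 27.1% higher and 36.0% lower of all genes. Of 14 Hedgehog genes 5 rose and 4 fell (median 0.39). The signal transducer gene Smo rose by 1.15 and by 2.15 in the knockout, and Gli3, the repressor arm, fell by 1.75. Of 18 Wnt genes 7 rose and 6 fell (median -0.10, 0.14 when centred). The secreted antagonist gene Sfrp1 fell from 11.21 and 11.10 to 9.16 and 9.08, though 1 of its 5 kept probe sets was called higher, at 2.19. The target factor gene Lef1 fell by 1.84, and the ligand gene Wnt10a rose by 1.72. Of 15 Notch genes 3 rose (20.0%) and 7 fell (46.7%), with a median of -0.21 (0.02 when centred). The ligand gene Jag2 fell by 1.51, the receptor gene Notch2 by 1.06 and the target genes Hey1 and Hey2 by 1.16 and 1.40. Of 20 genes of TGF-beta, BMP and Fgf signalling 7 rose and 5 fell (median 0.15). Smad6, which restrains BMP signalling, rose from 7.75 and 7.56 to 10.20 and 9.86. The BMP target gene Id1 rose by 1.14, Bmp2 by 1.15, and the Fgf feedback gene Spry4 fell by 1.27, while its other kept probe set was called higher (0.59) and their mean changed by -0.34, not called.

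Markers of other cell types are read beside the 27.1% higher and 36.0% lower of all genes. In whole bladder, fewer cells of a type and less RNA per cell cannot be told apart. Endothelial genes gave 9 higher (47.4%) and 2 lower of 19 (median 0.55). Their mean level was 8.92 to 8.98 at E18 and 9.36 to 9.51 at E19. Cldn5, the endothelial claudin, went from 9.50 and 9.33 to 11.74 and 11.48, Plvap rose by 1.84 and Sox18 by 1.74. Prox1, the lymphatic regulator, fell by 3.13. Pecam1, the endothelial adhesion gene, was not called (0.46). Macrophage and antigen presentation genes gave 7 higher and 0 lower of 19 (median -0.02, 0.21 when centred). The share called was 36.8%, beside 63.1% of all genes, and 4 were higher without the first E18 array. Csf1r, the macrophage growth factor receptor, rose from 10.81 and 10.94 to 12.31 and 12.35. C1qa rose by 1.89 while its partner chain C1qc read -0.05, and H2-Ab1 rose by 1.32 while its partner H2-Aa read -0.19. Neutrophil, mast cell and lymphocyte genes gave 4 higher (44.4%) and 1 lower of 9 (median 0.46), and 1 higher without the first E19 array. The mast cell carboxypeptidase gene Cpa3 rose by 1.81. Interferon response genes gave 6 higher (40.0%) and 1 lower of 15 (median 0.66). They gave 10 higher when centred or after quantile normalization, and 3 higher without the second E18 array. Ifit1 rose by 1.67 and Irf7 by 1.28.

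Mesothelial genes gave 6 lower (54.5%, beside 36.0% of all genes) and 0 higher of 11 (median -0.59). The mean level of the list was 10.41 to 10.73 at E18 and 9.58 to 10.03 at E19, and 3 were lower without the first E18 array (median -0.31), as after centring. Wt1 fell from 9.94 and 10.50 to 7.98 and 9.19 and Gpm6a from 11.18 and 10.71 to 7.91 and 8.62. How far the amount of outer covering in each sample bears on other genes was not tested. Neuronal genes gave 2 higher and 2 lower of 16 (median -0.20), and 4 and 1 when centred (median 0.03). Without the first E18 array 4 were lower and the median was -0.79, and without the second it was 0.36. Dbh, the enzyme that makes noradrenaline, went from 5.98 and 6.24 to 9.23 and 9.64 (0.07, not called, by the probe set taken with no filter), and Uchl1 fell by 2.24. Glial genes gave 4 higher (44.4%, beside 27.1% of all genes) and 2 lower of 9 (median 0.06), and 1 higher without the first E18 array. The Schwann cell factor gene Sox10 rose from 6.17 and 6.83 to 8.59 and 8.65.

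Lists of tissues that a dissection could carry along were tested too, and the counts of muscle, intestinal and liver genes called were low against the 63.1% of all genes. Skeletal muscle genes gave 1 higher (Ckm, 1.45) and 1 lower (Tnni2, -1.67) of 16 (median -0.28), with mean levels of 9.58 to 9.68 at E18 and 9.41 to 9.42 at E19. Cardiac muscle genes gave 1 lower of 5 (Myl7, -1.40) and a median of -0.18 (0.05 when centred). Intestinal genes gave 2 higher and 2 lower of 16 (median 0.22), 5 and 1 when centred, and 0 higher without the second E18 array. Liver genes gave 1 higher of 9 (Rbp4, 1.88; median 0.37). Wolffian duct, prostate and kidney genes gave 2 higher and 2 lower of 5 (median 0.21). Hoxb13, a posterior patterning gene, fell from 9.19 and 9.09 to 6.77 and 6.66. Of 5 globin and erythroid genes tested, Slc4a1 rose by 1.34 and Hbb-b2 fell by its highest probe set (median 0.73), and Slc4a1 was not called without the first E18 array (1.15) or the second E19 array (1.22). Ribosomal protein genes of the list gave 2 higher and 4 lower of 9, with a median of 0.00, and 5 higher and 0 lower when centred. Rpl8 rose by 0.28. None of 4 sex-linked genes was called between the stages in wild type. The 2 E18 arrays differed in them (Eif2s3y 11.80 and 4.13), and the 2 E19 arrays were alike (4.59 and 4.48). The lack of a call therefore does not mean that the stages match in sex.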

How the data were processed

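Total RNA was isolated with Trizol and made into biotin-labelled RNA with a 3 prime IVT Express kit, per the labels' protocols, for hybridisation to Affymetrix arrays. The deposited series holds a log2 value for each probe set on each array, and the authors made it with Affymetrix Expression Console and Partek, per the submitters' processing notes, without versions. How background was corrected and arrays normalized is not given in the sources used here. Values entered the model unscaled. Arrays give no counts, and their number limits the precision.

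The 64 controls among the 45101 probe sets were dropped. GEO's platform annotation gives 34945 of the others 1 symbol, 932 several and 9160 none, and 34754 of the symbols were the same in RefSeq for GRCm38.p6. Probe sets above the array's median on at least 2 of 28 arrays were kept (28866), and a gene was read by its probe set with the highest mean, which left 13613 genes. A single limma model (version 3.58.1 on R 4.3.3, beside Python 3.11.15, pandas 2.3.3 and matplotlib 3.10.9) held all 28 arrays with a mean for each of 14 groups, 14 residual and 6.19 prior degrees of freedom and a variance trend. P-values are two-sided and adjusted over all genes (Benjamini-Hochberg), and an adjusted p under 0.05 makes a call. An exact test of 2 arrays against 2 cannot go below 0.333. On simulated data of this design with 13613 genes, 37 of 50 changes of 1 and 49 of 50 changes of 2 were called in the wild-type comparison. There were 4 calls among 13413 unchanged genes. The simulation had few changed genes, independent noise and no shift of the E19 arrays, whereas 63.1% of genes were called in the data. Its counts therefore do not give the share of missed or false calls in the data.

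The naming rule took the 15 largest changes each way among called genes whose stages do not overlap, leaving aside unnamed and sex-linked genes. It added up to 4 members a list with the largest called change and a few markers. Other list members were named after their values were seen. The comparison, the members and the 44 lists (654 of 774 entries tested) were chosen with earlier results of these data known. Alternatives were other scalings, filters, probe set rules, array sets, array weights, a covariate for the actin 3 prime minus 5 prime difference, a replicate block and leaving out each array.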

Additional observations from a re-analysis of the deposited data

Results flagged for a closer look

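The poly-A control RNAs were outside every comparison. Their 24 probe sets averaged 9.12 on the wild-type E19 arrays and 4.35 on the wild-type E18 arrays.

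For 35 of the genes named in the comparisons above the change from E18 to E19 differed between wild-type and knockout bladder by limma's test of the difference (adjusted p under 0.05). A negative value below means a lower change in wild type. Among DNA replication genes the differences were -2.08 for Uhrf1, -1.56 for Gins2, -1.63 for Mcm3, -0.99 for Prim1, -2.19 for Cdc6, -1.97 for Mcm2, -2.35 for Mcm5, -1.35 for Orc1, -0.50 for Pcna, -1.26 for Rrm2 and -1.15 for Cdt1. Among mitosis genes they were -1.26 for Tpx2, -0.88 for Prc1, -1.43 for Birc5, -1.23 for Aurkb, -0.99 for Mki67 and -1.27 for Cenpf. Among glucocorticoid-induced genes they were 1.02 for Per1, 0.98 for Tsc22d3, 1.58 for Errfi1, 1.87 for Pdk4 and 0.64 for Glul. Acute phase and top-ranked genes gave 2.32 for Serpina3n, 1.40 for Saa3, 2.44 for Dynap and 1.81 for Slc10a6. Epithelial genes gave -1.33 for Bcl11b and 1.20 for Scnn1b. The rest were -1.05 for P4ha1, -0.95 for Dgat2, -0.82 for Calr, -1.40 for Gpm6a, -0.99 for Smo, -1.15 for Jag2 and -0.76 for Zmat3. Each difference is by 1 probe set, and knockout probe sets can disagree. Aurkb changed there by -0.71 and by 1.11 (both called), and Calr by -0.85 and by 0.65 (both called).

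Leaving out each of the 8 arrays in turn kept the call for 15 of the 35 genes: Uhrf1, Gins2, Mcm3, Prim1, Cdc6, Mcm2, Mcm5, Rrm2, Tpx2, Birc5, Cenpf, Errfi1, Pdk4, Dgat2 and Calr. Aurkb lost its call without the second knockout E18 array and P4ha1 without the first. Mki67 lost it without the second knockout E18 array or the first wild-type E19 array, and Dynap without the first knockout E19 array or the second wild-type E18 array. The call of Prc1 and of Glul was kept with 5 arrays left out in turn, that of Serpina3n and of Zmat3 with 4, and that of Bcl11b, Saa3, Orc1 and Pcna with 3. The call of Slc10a6, Per1, Jag2 and Cdt1 was kept with 2 of the 8 left out, that of Gpm6a, Scnn1b and Tsc22d3 with 1 and that of Smo with 0. The knockout E18 and E19 arrays also differ in Xist and Eif2s3y, and the part of that in these differences was not tested.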

How the results depend on the processing

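The scaling sets the balance of the calls. With each array centred, 57.3% of wild-type calls were higher, and in the knockout 5931 genes were higher and 2902 lower (67.1% higher, against 46.8% in the deposited values) and 837 genes had a lower change in wild type. Quantile normalization gave 56.6% higher in the knockout. Of 44 list medians 9 changed sign when centred. With all 45037 probe sets and no filter, 25591 were called in wild type (12190 higher, 13401 lower), 25338 in the knockout (12164 and 13174) and 1477 in the difference (638 and 839). With array weights 282 genes had a higher change in wild type.

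Leaving out 1 array gave 7504 to 7707 wild-type calls (3113 to 3269 higher, 4304 to 4451 lower) and 6952 to 7323 knockout calls (3213 to 3301 and 3702 to 4022). The difference gave 315 to 687 calls (63 to 170 higher, 241 to 517 lower). It had 315 without the second wild-type E18 array, 333 without the first and 350 without the second knockout E19 array, 464 without the second knockout E18 array and 471 without the first wild-type E19 array. With a replicate block 8504, 8158 and 670 genes were called in wild type, knockout and difference. Same-numbered arrays deviated with correlations over genes of 0.06 in wild type and -0.01 in the knockout. A single value for each genotype cannot exclude that the numbers pair the samples.

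Of 225 named genes 166 kept direction and call in wild type under every alternative run. As the mean of their probe sets, 5 changed direction: Kcnma1 0.15, Igf2bp1 0.18, Cpt1a -0.43, Nkd1 -0.41 and Igf2 -0.95. Rps3 changed by 0.032 when centred, against -0.20. No within-batch value exists, since every E19 array is of one kind.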

Other observations

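Genes whose probe sets moved together were looked at after the values were seen. Of 2697 genes with at least 3 kept probe sets, 319 (11.8%) had all of them called in 1 direction in wild type, 97 higher and 222 lower, and 156 were so in the knockout too. Among the higher ones was Fbxo32, a ubiquitin ligase gene of muscle wasting, with changes of 2.06 to 2.90 over 3 probe sets. Mchr1, the receptor of melanin-concentrating hormone, gave 2.54 to 2.76, Cotl1 1.88 to 5.33 over 6 probe sets, and the stress gene Sesn1 1.64 to 1.95. Pde2a, a cyclic nucleotide phosphodiesterase gene, and Id4, a regulator of differentiation, were also of this kind. Among the lower ones were Dtl, a ubiquitin ligase adaptor of S phase (-3.27 to -3.10), the spindle gene Tacc3 (-2.82 to -2.04), the chromatin remodeller gene Hells (-1.93 to -1.67) and the DNA repair gene Brca1 (-3.72 to -1.60). The long noncoding RNA gene Firre was lower by 4 probe sets (-2.98 to -1.99). Dtl read 11.63 and 11.41 at E18 and 7.83 and 8.68 at E19, and its change was lower than in the knockout by -1.69 (limma adjusted p = 0.0035).

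The largest differences between the genotypes, also chosen after their values were seen, lay partly outside the lists. Edn2, which encodes the vasoconstrictor peptide endothelin-2, went from 9.204 and 9.35 to 7.35 and 6.93 in wild type and from 8.27 and 9.47 to 10.28 and 10.10 in the knockout, a difference of -3.45 (limma adjusted p = 2.1e-04). Nectin1, an adhesion gene, went from 9.01 and 8.94 to 6.46 and 6.04 in wild type and from 7.13 and 6.66 to 6.24 and 6.45 in the knockout. Its other kept probe set changed by -0.08 in wild type and was not called. G0s2, an inhibitor of lipolysis, differed by -2.11, the DNA demethylase gene Tet1 by -2.15 (1 of its 4 kept probe sets was called in the opposite direction in wild type, at 0.64) and the basement membrane collagen gene Col4a4 by -2.30. In the other direction, Mmp7, an epithelial matrix protease, went from 5.67 and 5.72 to 9.06 and 8.76 in wild type and from 8.27 and 8.65 to 9.43 and 9.48 in the knockout. Hp, haptoglobin of the acute phase, went from 6.87 and 6.83 to 9.2002 and 8.51 in wild type while the knockout read 7.18 and 7.33, then 7.33 and 6.97. The inflammatory caspase gene Casp4 differed by 1.91, the inflammasome sensor gene Naip5 by 2.38 and the pattern recognition gene Ptx3 by 2.37.

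Ribosomal protein genes, grouped after the values were seen, had a median change of -0.01 over 46 genes, and 35 of them changed by less than 0.5 either way. Rpl27a went from 14.56 to 10.46 in wild type and changed by -5.01 in the knockout, while Rpl37 rose by 6.51.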
